A study of Homo sapiens with 48 samples.

Results

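RNAseq of PSN1, a human pancreatic cancer (PDAC) line without BRCA mutation, was searched for genes whose transcripts were gained in cells with acquired resistance to Talazoparib, an inhibitor of the DNA repair enzyme PARP1, and were still gained after the drug had been taken away. Parental cells received no drug (Day 0). TalaR-M cells had been selected for 4 months in rising amounts of Talazoparib and were kept at 50 nM, and TalaR-DF cells were TalaR cells grown for 4 weeks without the drug. Each group had 3 replicates, so that 9 libraries of the 48 samples of the study were used. A gene was a member when its mean level reached 3 log2 CPM (the read count of a gene scaled to its library) both in TalaR-M replicates 1 and 3 and over all TalaR-DF replicates, and when both means lay at least 1.5 above the parental mean. Of the 20241 genes in the deposited table, 57 met this rule. The TalaR cells are a selected population of 1 line, and the sources do not state that they are a clone. In the study, 4 weeks without drug brought PSN1 TalaR cells back to nearly parental sensitivity to Talazoparib. Where TalaR-DF cells are called resistant below, the word refers to their origin and not to their drug response.

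Talazoparib traps PARP1 on DNA and blocks the synthesis of poly(ADP-ribose). Cells selected in such drugs can change DNA repair, drug efflux or cell state, and a change of state in carcinoma cells is often seen as altered extracellular matrix, cell adhesion and secreted signals.

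The values that chose the members are given here as a description and with no test. Over the 57 members the median log2 difference from parental cells was 2.78 in TalaR-M cells (6.85-fold) and 2.27 in TalaR-DF cells (4.81-fold). Over the 12471 genes above 1 CPM in at least 3 libraries the same medians were 0.011 and 0.015. A mean at least 1.5 above parental cells was found in 3.37% of these genes for TalaR-M replicates 1 and 3 and in 1.11% for TalaR-DF cells. With the level of 3 log2 CPM as well, 280 genes met the TalaR-M side of the rule and 82 met the TalaR-DF side. The difference was larger in TalaR-M cells for 46 members and larger in TalaR-DF cells for 11. The share of the log2 gain of TalaR-M cells that TalaR-DF cells still showed ranged from 32.4% for BMP4 to 124% for MAP7D2, with a median of 83.6%.

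**Figure D1:**
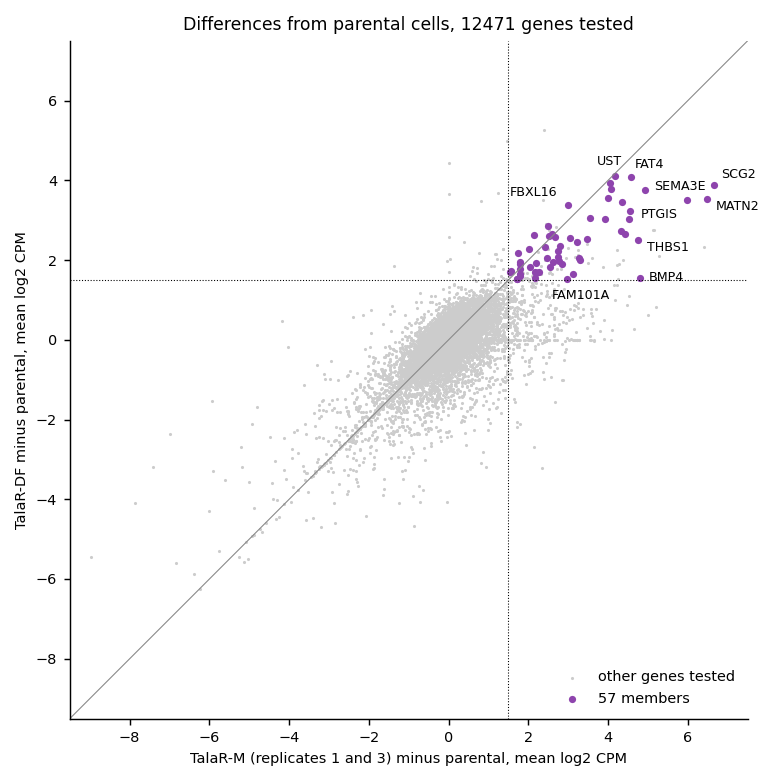
Each point is a gene among the 12471 tested, with the mean log2 CPM of TalaR-M replicates 1 and 3 minus parental cells on the x axis and TalaR-DF minus parental cells on the y axis. Members are purple, dotted lines mark the difference of 1.5 and the grey line marks equal differences. SCG2 lies farthest to the right at 6.66, UST lies highest of the members at 4.10, and BMP4 lies far below the line with 4.79 and 1.55.

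Most members were weakly expressed in parental cells. The parental mean was under 3 log2 CPM for 42 members and under 1 for 12, and SSTR1 was listed at 0 in all 3 parental libraries. A value of 0 stands for at most 1 CPM, because values below 0 had been set to 0, and 4 members had at least 1 parental library at 0. For these genes the printed difference understates the change. All 57 members passed the filter on low values, since the rule itself asks for a level of 3. In bulk RNA a larger share of cells with a transcript and more transcript per cell cannot be told apart.

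The promoters of 5 members are shown as the 250 bases before the RefSeq start on GRCh38.p14, read on the strand of the gene. The window adjoins the edge of the gene except for BMP4, where it lies inside the gene, before an inner start. UST had the largest difference in TalaR-DF cells, SSTR1 was listed at 0 in parental cells, COCH held matches to 3 of the motifs, BMP4 differed most between TalaR-M and TalaR-DF cells, and ABCG2 is the drug efflux pump among the members. Capitals mark matches, on either strand, to any of the 11 motifs named below. UST is at chr6:148746780-148747029 on the plus strand, SSTR1 at chr14:38207654-38207903 and COCH at chr14:30874309-30874558 on the plus strand, BMP4 at chr14:53955051-53955300 and ABCG2 at chr4:88231627-88231876 on the minus strand.
UST: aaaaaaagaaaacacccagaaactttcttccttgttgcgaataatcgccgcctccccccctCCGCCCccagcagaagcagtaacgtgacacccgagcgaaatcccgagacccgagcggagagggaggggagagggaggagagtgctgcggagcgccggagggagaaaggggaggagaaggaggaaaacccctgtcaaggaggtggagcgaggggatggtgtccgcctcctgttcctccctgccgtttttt
SSTR1: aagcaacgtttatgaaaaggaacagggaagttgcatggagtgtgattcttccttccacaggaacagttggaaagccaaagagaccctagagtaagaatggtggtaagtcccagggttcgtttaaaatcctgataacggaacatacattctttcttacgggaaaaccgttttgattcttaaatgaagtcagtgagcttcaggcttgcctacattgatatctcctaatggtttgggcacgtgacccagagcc
COCH: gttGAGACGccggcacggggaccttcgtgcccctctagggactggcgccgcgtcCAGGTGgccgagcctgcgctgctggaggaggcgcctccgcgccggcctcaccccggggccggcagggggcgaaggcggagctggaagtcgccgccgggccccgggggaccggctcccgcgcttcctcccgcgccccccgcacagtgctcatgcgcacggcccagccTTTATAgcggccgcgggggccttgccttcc
BMP4: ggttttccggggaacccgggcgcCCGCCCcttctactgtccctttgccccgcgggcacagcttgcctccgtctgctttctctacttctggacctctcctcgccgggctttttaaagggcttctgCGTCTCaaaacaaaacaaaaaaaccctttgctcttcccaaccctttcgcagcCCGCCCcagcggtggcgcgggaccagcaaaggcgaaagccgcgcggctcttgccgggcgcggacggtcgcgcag
ABCG2: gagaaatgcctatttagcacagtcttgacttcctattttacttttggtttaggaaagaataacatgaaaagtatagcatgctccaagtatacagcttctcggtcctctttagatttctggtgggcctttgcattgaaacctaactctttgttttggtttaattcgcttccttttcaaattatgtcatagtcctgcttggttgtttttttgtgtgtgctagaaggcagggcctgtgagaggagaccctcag

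The promoter table held 41 of the 57 members and 10171 of the genes tested. The 11 motifs were chosen after the data had been seen, both strands were read, and a match is a description of the letters in this window. CACCTG, the E-box that SNAI-type repressors recognise, was in 19.5% of member promoters, in 15.5% of those of genes tested and in 17.5% of all 27305 promoters. TATAAA was in 12.2%, 5.27% and 11.1%, and GGGCGG, the GC box, was in 63.4%, 68.1% and 42.3%. GAGACG was in 26.8% of member promoters against 12.9% of those of genes tested and 9.13% of all, the widest excess over the genes tested of the 11 motifs in percentage points. CCAAT was in 24.4%, 34.9% and 33.0%, and GGAATG was in 14.6%, 9.33% and 11.9%. TTCCCGC was in 4.88%, 9.03% and 5.58%, and TGACGT was in 2.44%, 10.4% and 7.42%. TGANTCA, which includes TGACTCA, was in 1 member promoter, 3.79% of those of genes tested and 6.60% of all. TGACTCA itself and TGACGTCA, which includes TGACGT, were in 0 of 41, in 2.49% and 2.92% of the promoters of genes tested, and in 4.16% and 1.77% of all. The median number of CpG pairs in the window was 23 in member promoters and 21 in those of genes tested.

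The libraries held between 12213605 and 14973847 reads on genes above 1 CPM, except TalaR-M replicate 2, which held 8387755. TalaR-M replicate 2 stood apart from every other library. Its correlation with replicates 1 and 3 over the genes tested was 0.857 and 0.858, against 0.995 between those replicates. Summed ribosomal protein transcripts reached 255132 CPM in it, against at most 78234 CPM in the parental and 75351 CPM in the TalaR-DF libraries. This library did not enter the choice of members, and many results are given without it as well. Calls that changed without it are not given for every gene list. Of 10 duct and carcinoma markers 9 passed the filter, with a summed level of 1238 to 1303 CPM in parental, 1818 to 5861 CPM in TalaR-M and 1049 to 1190 CPM in TalaR-DF libraries, and CEACAM6 was at 0 in every library. Of the fibroblast markers 8 of 10 passed, with a summed level of 1815 to 1890 CPM in parental, 1236 to 3462 CPM in TalaR-M and 1222 to 1295 CPM in TalaR-DF libraries, while FAP and THY1 were at 0. Of the leukocyte markers 4 of 10 passed, with sums of 82.9 to 89.7, 124 to 192 and 36.9 to 40.9 CPM in the same order, while CD3E and SPI1 were among those at 0. Of the neural markers 3 of 10 passed, with 106 to 113, 115 to 141 and 65.0 to 75.0 CPM, while GFAP, DCX and ELAVL4 were at 0. Of the endothelial markers 4 of 10 passed, with 31.0 to 33.2, 5.91 to 10.3 and 2.92 to 3.24 CPM, while VWF, ERG and CLDN5 were at 0. Of the erythroid markers only RHAG was above 0, at 20.5 to 22.6 CPM in TalaR-DF libraries. No member belongs to any of these marker lists, and the part of other cells in the results was not tested.

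**Figure D2:**
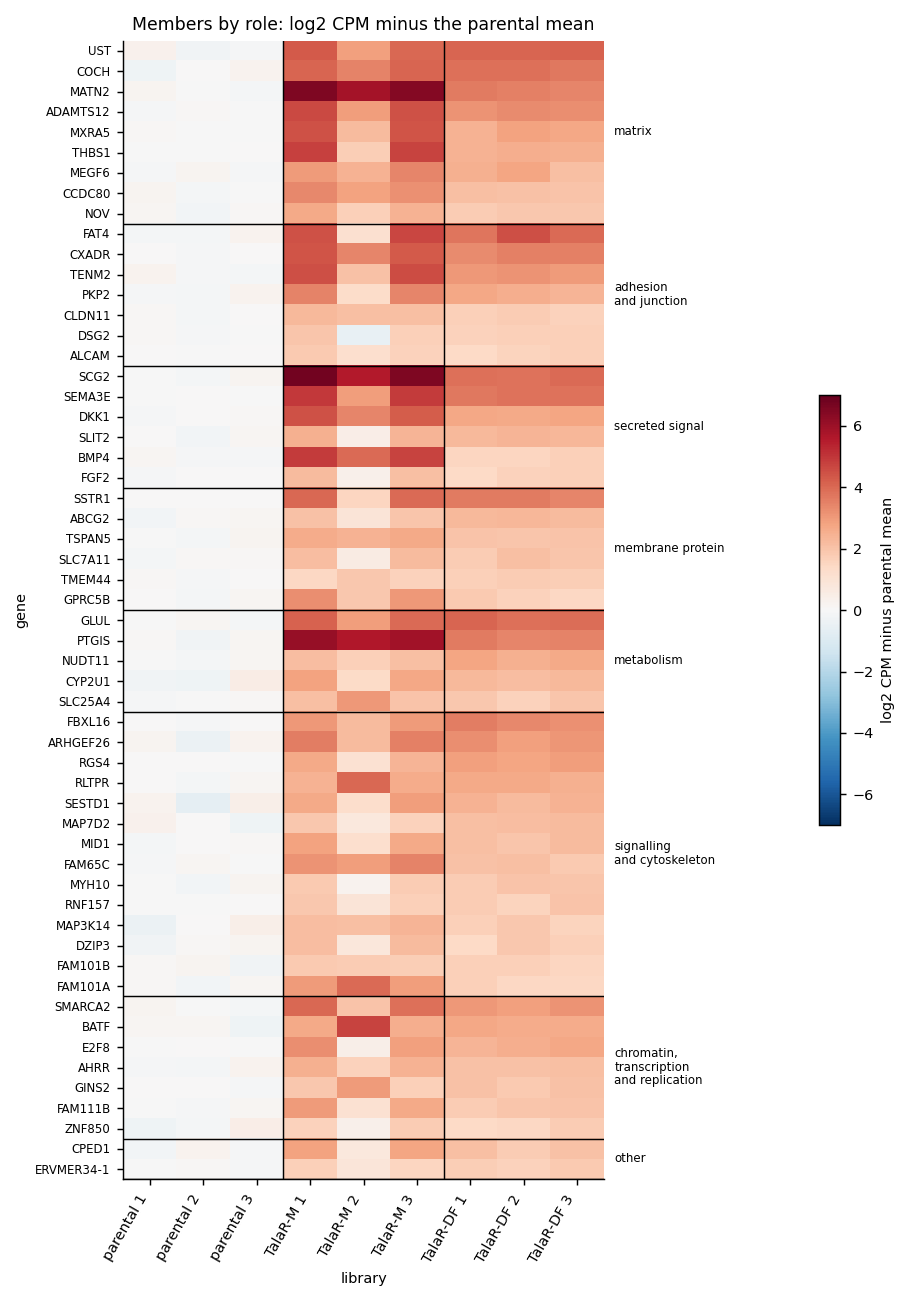
Rows are 56 of the 57 members grouped by role and columns are the 9 libraries, and colour gives log2 CPM minus the parental mean of that gene. Both resistant groups are red throughout in TalaR-M replicates 1 and 3 and in TalaR-DF cells, which the choice of members fixes, and TalaR-M replicate 2 is paler for most genes.

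Extracellular matrix proteins and the enzymes that shape them made up 9 members. UST, which adds sulfate to the uronic acids of chondroitin and dermatan sulfate chains, was at 2.10, 1.56 and 1.70 log2 CPM in parental replicates 1 to 3. It was at 6.10, 4.65 and 5.83 in TalaR-M and at 5.88, 5.88 and 5.90 in TalaR-DF cells. All resistant libraries lay above all parental libraries, and the mean differences of 4.18 and 4.10 were 18.1-fold and 17.1-fold. COCH, the secreted matrix protein cochlin, was at 0.83, 1.16 and 1.36 in parental, 5.19, 4.60 and 5.17 in TalaR-M and 4.95, 4.98 and 4.80 in TalaR-DF cells, with 93.4% of the log2 gain left without drug. MATN2, a matrilin that links matrix filaments, was at 0.45, 0.20 and 0.08, then at 6.76, 6.05 and 6.68, and then at 3.89, 3.75 and 3.66 in the same order of groups. The TalaR-M libraries of MATN2 lay highest, the TalaR-DF libraries lay between, and no 2 groups overlapped. ADAMTS12, a secreted metalloprotease, was already at 4.11 to 4.23 in parental cells and reached 8.77, 7.09 and 8.64 in TalaR-M and 7.31, 7.48 and 7.40 in TalaR-DF cells. THBS1, the adhesive glycoprotein thrombospondin, was at 5.81 to 5.89 in parental, 10.62, 7.57 and 10.58 in TalaR-M and 8.29, 8.42 and 8.34 in TalaR-DF cells. Its TalaR-M replicate 2 lay below the TalaR-DF libraries, whereas replicates 1 and 3 were above them. CCDC80, a secreted protein bound to matrix, was at 3.12 to 3.41, then 6.61, 6.06 and 6.43, and then 5.26 to 5.34. MXRA5, MEGF6 and NOV (CCN3), named to account for every member, had TalaR-M differences of 4.43, 3.21 and 2.54 and TalaR-DF differences of 2.65, 2.45 and 1.84.

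Adhesion and junction proteins made up 7 members. FAT4, a giant cadherin that acts upstream of the Hippo pathway, was at 0, 0 and 0.36 log2 CPM in parental cells, 4.57, 1.22 and 4.81 in TalaR-M cells and 3.85, 4.62 and 4.11 in TalaR-DF cells. Replicate 2 was the lowest resistant library of FAT4, and its distance of 3.47 below the mean of replicates 1 and 3 was the largest among the members. CXADR, a tight junction protein and virus receptor, was at 0.20 to 0.30, then 4.68, 3.66 and 4.54, and then 3.58, 3.78 and 3.80. DSG2, a desmosomal cadherin, was at 5.31, 5.17 and 5.23 in parental, 7.17, 4.73 and 6.90 in TalaR-M and 6.84, 6.93 and 6.91 in TalaR-DF cells. TalaR-M replicate 2 was below all parental libraries for DSG2. ALCAM, an adhesion molecule of the immunoglobulin family, had differences of 1.72 and 1.53 and was among the members nearest to the threshold. The desmosome protein PKP2, the claudin CLDN11 and the teneurin TENM2 had TalaR-M differences of 3.46, 2.18 and 4.52 and TalaR-DF differences of 2.54, 1.70 and 3.04.

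Secreted signals made up 6 members, and their median difference was 4.56 in TalaR-M and 2.52 in TalaR-DF cells. SCG2, secretogranin of neuroendocrine granules, was at 0.83, 0.73 and 1.03 log2 CPM in parental, 7.64, 6.40 and 7.41 in TalaR-M and 4.74, 4.67 and 4.80 in TalaR-DF cells. Its difference of 6.66 in TalaR-M cells was the largest of all members, at 101-fold. BMP4, a ligand of the TGF-beta superfamily, was at 2.65, 2.43 and 2.41, then 7.37, 6.46 and 7.21, and then 3.98, 4.01 and 4.16. The 3 groups of SCG2 and of BMP4 did not overlap. DKK1, a secreted inhibitor of Wnt signalling, was at 2.63, 2.74 and 2.77, then 7.15, 6.15 and 6.93, and then 5.40, 5.39 and 5.49. SEMA3E, a semaphorin that acts through plexin receptors, was at 0 to 0.01 in parental, 4.97, 2.91 and 4.90 in TalaR-M and 3.68, 3.80 and 3.83 in TalaR-DF cells. SLIT2, the ligand of ROBO guidance receptors, was at 2.50, 2.27 and 2.58, then 4.92, 2.91 and 4.81, and then 4.73, 4.82 and 4.75. TalaR-M replicates 1 and 3 of SLIT2 thus overlapped the TalaR-DF libraries. FGF2, a growth factor for fibroblasts and endothelium, had differences of 2.16 and 1.54.

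Receptors, transporters and other proteins of the membrane made up 7 members. SSTR1, a somatostatin receptor, was listed at 0 in all parental libraries, at 4.03, 1.52 and 3.96 log2 CPM in TalaR-M and at 3.65, 3.62 and 3.40 in TalaR-DF libraries. ABCG2, an ATP-driven pump that exports many drugs and marks stem-like cells, was at 2.15, 2.39 and 2.47, then 4.39, 3.23 and 4.29, and then 4.62, 4.66 and 4.53. All 3 TalaR-DF libraries of ABCG2 were above all TalaR-M libraries, and its fold over parental cells was 4.02 in TalaR-M replicates 1 and 3 and 4.81 in TalaR-DF cells. SLC7A11, the cystine importer that feeds glutathione synthesis, was at 3.42, 3.62 and 3.64, then 5.72, 4.11 and 5.78, and then 5.34, 5.66 and 5.47. TMEM44, at 3.13 to 3.28, then 4.66, 5.13 and 4.86, and then 4.87 to 4.98, had the smallest TalaR-M difference of all members at 1.53. The tetraspanin TSPAN5 and the orphan receptor GPRC5B had differences of 2.61 and 3.13 in TalaR-M and of 1.96 and 1.64 in TalaR-DF cells.

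Metabolic genes made up 5 members. GLUL, glutamine synthetase, was at 0.38, 0.53 and 0.28 log2 CPM in parental, 4.53, 3.34 and 4.37 in TalaR-M and 4.45, 4.25 and 4.30 in TalaR-DF cells. Its fold over parental cells was 16.6 and 15.3, so that 97.1% of the log2 gain was left without drug. PTGIS, the enzyme that makes prostacyclin, was at 1.03, 0.73 and 1.08, then 7.02, 6.57 and 6.85, and then 4.57, 4.36 and 4.40. SLC25A4, which exchanges ADP and ATP across the inner mitochondrial membrane, was at 2.29 to 2.45, then 4.44, 5.41 and 4.34, and then 4.25, 3.97 and 4.31. For SLC25A4 replicate 2 was the highest TalaR-M library. The P450 enzyme CYP2U1 had differences of 2.75 and 2.24. NUDT11 had 2.14 and 2.63, and its reads are uncertain because NUDT10 is a near-identical copy.

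**Figure D3:**
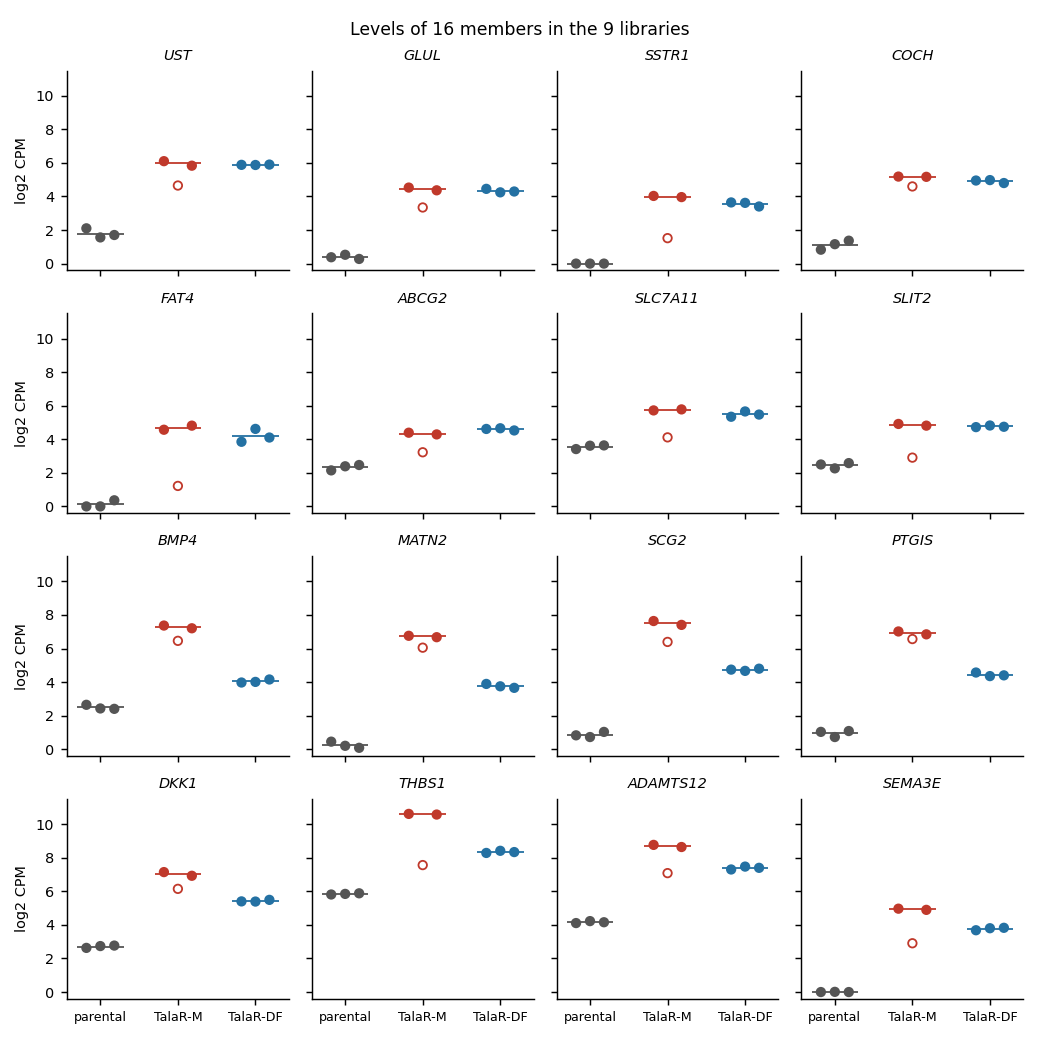
Points are the log2 CPM of 16 members in the 3 replicates of each group, the open circle is TalaR-M replicate 2, and lines are group means without it. For the first 8 genes the lines of TalaR-M and TalaR-DF cells lie at most 0.50 apart, and the last 8 are higher in TalaR-M replicates 1 and 3 than in any TalaR-DF library, as for BMP4 at 7.37 and 7.21 against 3.98 to 4.16.

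Signalling and cytoskeleton genes made up 14 members, and chromatin, transcription and replication genes made up 7. ARHGEF26, a guanine nucleotide exchange factor, was at 0.59, 0.01 and 0.67 log2 CPM in parental, 4.00, 2.63 and 3.93 in TalaR-M and 3.66, 3.28 and 3.50 in TalaR-DF cells. The refilin FAM101A (RFLNA) was at 3.10 to 3.43, then 6.26, 7.23 and 6.23, and then 4.73 to 4.96, and its reads may be shared with a readthrough transcript from ZNF664. FAM65C (RIPOR3) was at 2.69 to 2.93, then 5.91, 5.70 and 6.24, and then 4.60 to 4.91. Of the others in the first group, FBXL16, RGS4, RLTPR (CARMIL2), MYH10 and MAP7D2 had larger differences in TalaR-DF than in TalaR-M cells. FBXL16, an F-box protein, had 3.39 in TalaR-DF and 2.99 in TalaR-M cells, RGS4, a brake on G protein signalling, had 2.85 and 2.49, and MYH10, a non-muscle myosin, had 1.89 and 1.79. RLTPR and MAP7D2, a microtubule-associated protein, had 2.59 and 2.53, and 2.17 and 1.75. SESTD1, MID1, RNF157, MAP3K14, DZIP3 and FAM101B (RFLNB) had TalaR-M differences of 1.78 to 2.79 and TalaR-DF differences of 1.61 to 2.36. Of the chromatin group, SMARCA2, an ATPase of the SWI/SNF remodelling complex, was at 2.01 to 2.29, then 6.16, 4.15 and 5.96, and then 5.17, 5.02 and 5.26. BATF, a transcription factor of the AP-1 family, was at 0.92 to 1.37, then 3.84, 5.92 and 3.74, and then 3.81 to 3.91. BATF thus had its highest value in TalaR-M replicate 2. GINS2, a subunit of the replicative helicase, was at 3.44 to 3.57, then 5.44, 6.49 and 5.20, and then 5.34 to 5.56. E2F8, FAM111B, AHRR and ZNF850 had TalaR-M differences of 3.04, 2.83, 2.46 and 1.70 and TalaR-DF differences of 2.54, 1.91, 2.06 and 1.54. CPED1 and ERVMER34-1, a gene of retroviral origin, were placed in no role and had TalaR-M differences of 2.78 and 1.57 and TalaR-DF differences of 1.97 and 1.72.

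The members nearest to the threshold of 1.5 differed little from the genes left outside. FAM101A, ALCAM and TMEM44 had a smaller difference of 1.52, 1.53 and 1.53 and were inside. EMB, ZNF367 and IFT27 had 1.49, 1.48 and 1.46 and were outside. At the level of 3, SESTD1 at 3.00, ERVMER34-1 at 3.13 and CYP2U1 at 3.18 were inside, and HMGN5 at 2.93, RIMKLB at 2.88 and PRICKLE1 at 2.77 were outside.

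TalaR-M replicate 2 was the only library that the choice of members did not use. The parental libraries on the other side of the comparison did enter the choice. Members were thus picked in part for low parental values, and the genes tested are not matched to them in this. In this library 55 of the 57 members were above all 3 parental libraries, against 37.9% of the genes tested. An excess of at least 1 on the log2 scale over the highest parental library was seen for 40 members, against 16.4% of the genes tested. The exceptions were DSG2 and ZNF850. The median distance from the parental mean was 1.89 for the members and -0.35 for the genes tested. With 1 library no test was made.

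The members were lower in TalaR-M replicate 2 than in its fellow replicates. The median distance from the mean of replicates 1 and 3 was -1.10 over the members and -0.32 over the genes tested, with a range over the members from -3.47 for FAT4 to 2.13 for BATF. Of the members 30 were more than 1 below that mean and 4 were more than 1 above it (BATF, RLTPR, GINS2 and SLC25A4). Of 12406 genes tested 3628 were more than 1 below and 1783 were more than 1 above. The rule asked for high values in replicates 1 and 3 and not in replicate 2, so that the members are not an even sample for this comparison. The distance went with transcript length, with a correlation across genes of -0.59 over the 57 members and -0.62 over 12406 genes tested, which share the same 3 libraries and are not independent replicates. The median transcript length was 4701 bases for the members and 3406 for the genes tested, and the median GC content was 46.1% and 48.4%.

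**Figure D4:**
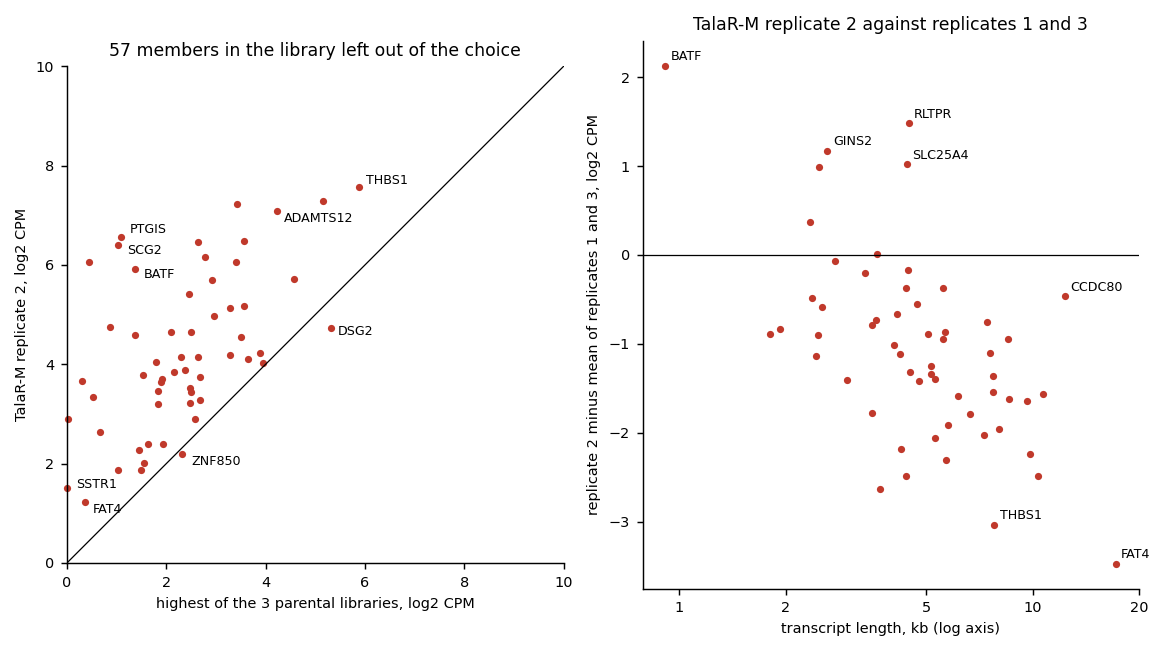
Left, the log2 CPM of each of the 57 members in TalaR-M replicate 2 against the highest parental library, with a line of equality. Right, replicate 2 minus the mean of replicates 1 and 3 against transcript length in kb on a log axis. The left panel shows 55 points above the line, and in the right panel FAT4, the longest, lies lowest at -3.47 and BATF, the shortest, lies highest at 2.13.

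Whether the members differed between TalaR-M and TalaR-DF cells was tested with limma over the 12471 genes. The rule does not set the direction of this contrast, but it filtered the same libraries except TalaR-M replicate 2, and its minimum level and difference in both populations limit the values that members can take. The counts of members below are therefore descriptions, and the shares beside them are those of genes that were not selected in this way. Called genes had an adjusted p under 0.05 (Benjamini-Hochberg) and a change of at least 2-fold. The replicates were harvested in triplicate, so that p-values measure the spread between these samples, which may be technical. With all 9 libraries 8 members were called higher in TalaR-M cells, against 5.29% of the genes tested, and 0 were called lower, against 1.64%. By limma 0 members were lower also at an unadjusted p under 0.05 with 2-fold, for which the share over the genes tested was not counted. Without TalaR-M replicate 2, 14 members were called higher, against 6.96% of the genes tested, and 0 lower, against 1.4%. The 8 members called with all libraries were among the 14.

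BMP4 had the largest such difference, 2.96 ± 0.24 (SE) on the log2 scale or 7.80-fold (limma, adjusted p = 0.00016), and 3.24 ± 0.11 without replicate 2. MATN2 followed with 2.73 ± 0.22 (adjusted p = 0.00016) and SCG2 with 2.41 ± 0.30 (adjusted p = 0.0016). PTGIS differed by 2.37 ± 0.18 (adjusted p = 0.00012), a 5.16-fold higher level in TalaR-M cells. FAM101A differed by 1.76 ± 0.27 (adjusted p = 0.0045), DKK1 by 1.31 ± 0.24 (adjusted p = 0.011), FAM65C by 1.16 ± 0.18 (adjusted p = 0.0048) and CCDC80 by 1.07 ± 0.17 (adjusted p = 0.0056). The calls of FAM65C (0.97) and CCDC80 (0.94) were lost with a pseudocount of 8 CPM, that of CCDC80 also without TalaR-M replicate 1 (0.95), and that of DKK1 when the resistant groups alone were fitted. Of these 8 genes 3 encode secreted signals and 2 encode matrix proteins. In each of them every TalaR-M library was above every TalaR-DF library.

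The 6 members called higher only when replicate 2 was left out were THBS1, MXRA5, GPRC5B, TENM2, ADAMTS12 and SEMA3E. THBS1 differed by 2.25 ± 0.060 without replicate 2 (limma, adjusted p = 3.2e-10) and by 1.24 ± 0.72 with it (adjusted p = 0.26). MXRA5 differed by 1.78 ± 0.088 without and 1.04 ± 0.54 with replicate 2, and ADAMTS12 by 1.31 ± 0.071 and 0.77 ± 0.39. SEMA3E differed by 1.16 ± 0.12 and 0.49 ± 0.49. Of the 9 matrix members 2 were called with all libraries and 5 without replicate 2, and of the 6 secreted signals 3 and 4 were. In the chromatin, transcription and replication group 0 of 7 members were called either way. Over the genes tested the shares called higher were 5.29% and 6.96%, so that 0 of 7 is near them.

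Of the 49 members not called with all 9 libraries, 16 had a 95% interval of the difference that lay within 2-fold in both directions. Without replicate 2 this held for 36 of 43. UST differed by -0.36 with all libraries (95% interval -1.17 to 0.45) and by 0.082 without replicate 2 (-0.24 to 0.40). GLUL differed by -0.25 (-0.93 to 0.42) and by 0.12 (-0.17 to 0.40), and COCH by 0.076 (-0.42 to 0.57) and by 0.27 (-0.057 to 0.60). For ABCG2 the difference was -0.63 (-1.31 to 0.051) and -0.26 (-0.52 to 0.0076), and for SLC7A11 it was -0.29 (-1.22 to 0.65) and 0.26 (0.024 to 0.49). For FAT4 the interval with all libraries, -2.59 to 1.27, reached beyond 2-fold in both directions.

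No member was called higher in TalaR-DF than in TalaR-M cells. This is near the share over the genes tested, 1.64% with all 9 libraries and 1.4% without replicate 2. Without the 2-fold threshold and without replicate 2, 4 members were lower in TalaR-M cells, against 25.3% of the genes tested. These were NUDT11 (-0.48 ± 0.12), MAP7D2 (-0.42 ± 0.16), FBXL16 (-0.40 ± 0.11) and RGS4 (-0.36 ± 0.095), named after their values were seen. By the same criterion 30 members were higher in TalaR-M cells. The share over the genes tested was not counted for this direction, so that the 30 cannot be set against the 4 or read as an excess. All TalaR-M libraries were above all TalaR-DF libraries in 14 members, against 16.7% of the genes tested, and below them in 5, against 24.1%. The median difference over the members was 0.13, against -0.0885 over the genes tested, and without replicate 2 it was 0.50 against -0.016. By sign alone 37 members were higher and 20 lower in TalaR-M cells, and without replicate 2 the counts were 46 and 11.

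**Figure D5:**
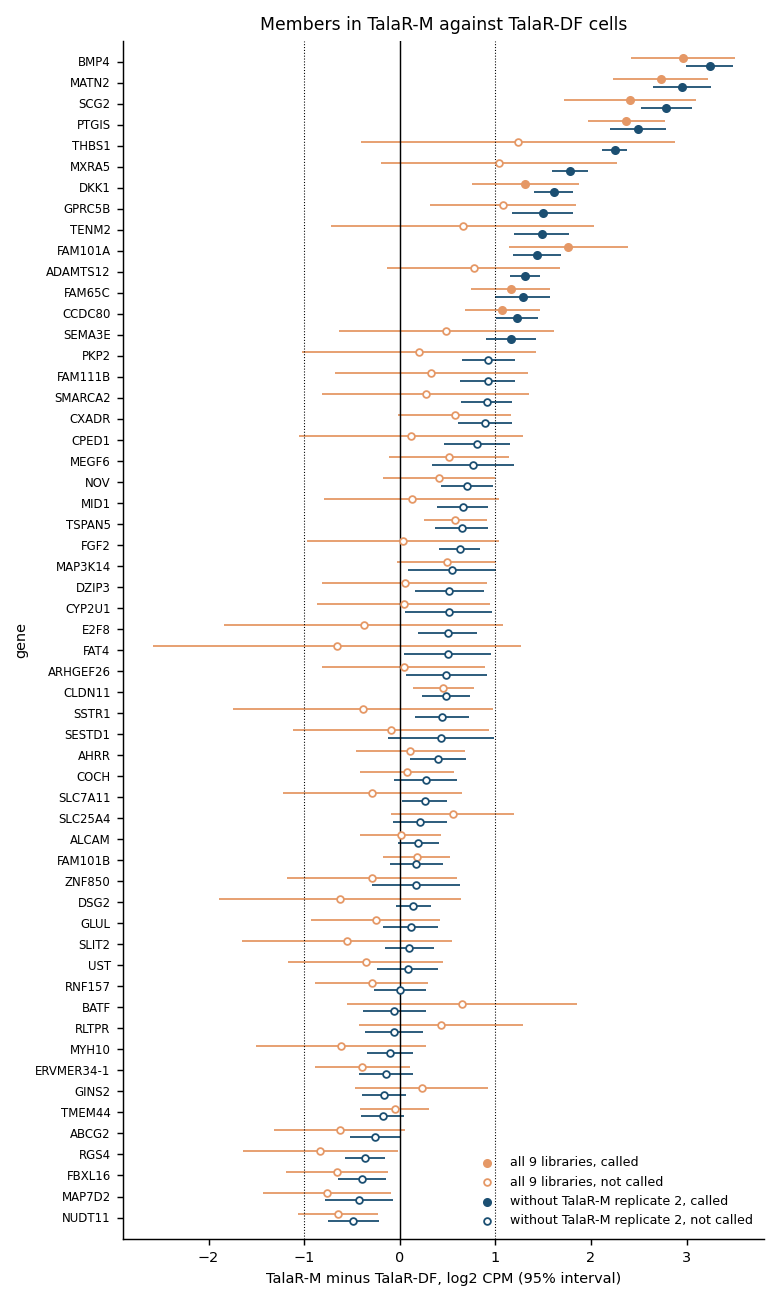
TalaR-M minus TalaR-DF log2 CPM of 56 of the 57 members with 95% intervals from limma, with all 9 libraries (orange) and without TalaR-M replicate 2 (blue), filled where called, and dotted lines at 2-fold. The 8 genes filled in orange run from BMP4 at 2.96 to CCDC80 at 1.07, and the blue intervals are narrower.

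The members were compared with gene families of the same pathways. The calls against parental cells come from the contrasts that chose the members and are read only as counts. With all 9 libraries 5.53% of the genes tested were called higher and 7.72% lower in TalaR-M than in parental cells, and 2.25% and 7.49% in TalaR-DF cells. Without replicate 2 the TalaR-M shares were 6.78% and 7.07%. The median differences between TalaR-M and TalaR-DF cells given below stand beside the -0.0885 of all genes tested.

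Of 33 laminins and other matrix glycoproteins tested, which hold MATN2 and THBS1, 3 were called higher and 7 lower in TalaR-M than in parental cells, and 3 and 10 in TalaR-DF cells. Without TalaR-M replicate 2, 6 were higher and 6 lower in TalaR-M cells, with FBN1, NTN4 and TNC added to those higher. The third gene called higher in both with all libraries was FBLN1, a fibulin, with 3.83 and 2.06, which stayed under the level of 3 in TalaR-DF cells. Between TalaR-M and TalaR-DF cells 7 were higher and 0 lower, with a median of 0.58, and 14 were higher and 0 lower without replicate 2, with a median of 0.92. By limma 10 fell in TalaR-DF against parental cells with all libraries, and 14 in the fit without TalaR-M replicate 2. Among the 10 were the laminin chains LAMA5 (-1.46) and LAMB3 (-1.39). Of 22 cadherins and protocadherins, which hold FAT4 and DSG2, 3 were higher and 7 lower in TalaR-M than in parental cells, and 2 and 6 in TalaR-DF cells. Without replicate 2 the TalaR-M counts were 5 and 6, with DSG2 and PCDHGB5 added to those higher. The TalaR-DF counts in that fit were 3 and 7. The pair higher in TalaR-DF cells with all 9 libraries was FAT4 (4.07) and CDH2 (2.91), which is N-cadherin. The CDH2 mean of 2.65 log2 CPM over TalaR-M replicates 1 and 3 missed the level of 3.

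Of 51 axon guidance genes, which hold SEMA3E and SLIT2, 6 were higher and 14 lower in TalaR-M than in parental cells (9 and 15 without replicate 2), and 4 and 12 in TalaR-DF cells. ROBO1, a receptor for SLIT ligands, fell by 1.33 in both, to a listed value of 0. Between TalaR-M and TalaR-DF cells 6 were higher and 1 lower, with a median of 0.092, and 13 were higher without replicate 2, with a median of 0.30. Of 242 solute carriers, which hold SLC7A11 and SLC25A4, 18 were higher and 25 lower in TalaR-M than in parental cells (25 and 23 without replicate 2), and 8 and 28 in TalaR-DF cells. Between TalaR-M and TalaR-DF cells 22 were higher and 6 lower, with a median of -0.11, and without replicate 2 the counts were 22 and 4.

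Of 37 TGF-beta and BMP genes 4 were higher and 6 lower in TalaR-M than in parental cells, and the counts without replicate 2 were equal. The 4 higher were BMP4, the BMP antagonist NOG (3.24), the decoy receptor BAMBI (2.11) and the follistatin-like FSTL1 (1.98). Only BMP4 of the 37 was called higher in TalaR-DF cells, in both fits. Of 32 Wnt genes 6 were higher and 7 lower in TalaR-M cells and 3 and 5 in TalaR-DF cells. Without replicate 2 the TalaR-M counts were 10 and 6, so that the balance between higher and lower Wnt genes turned with this library. DKK1 and RNF43, a ubiquitin ligase that removes Wnt receptors, were higher in both, with 2.86 and 2.29 for RNF43, and WNT5A was higher by 3.58 in TalaR-M cells and by 0.24 (not called) in TalaR-DF cells. Of 18 FGF and receptor genes FGF2 alone was called higher, in both comparisons. Against parental cells 8 of the 18 were called lower in TalaR-M cells (10 without replicate 2) and 5 in TalaR-DF cells. FGF7 and FGF5 fell to a listed value of 0 in both.

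The stemness and drug efflux list, 21 genes tested, includes genes that the study picked from these cells, so that it is not independent evidence. In it 6 were higher and 3 lower in TalaR-M than in parental cells (7 and 3 without replicate 2), and 3 and 2 in TalaR-DF cells. The 3 in TalaR-DF cells were ABCG2 (2.27), TSPAN8 (1.83) and MYC (1.09). TSPAN8 missed the level of 3 in TalaR-DF cells, and PROM1 and CD24 were higher by 3.54 and 2.63 in TalaR-M cells and were listed at 0 in parental and TalaR-DF cells. Of 29 ABC transporters ABCG2 was the only one called higher in TalaR-DF cells, against 3 called higher in TalaR-M cells (ABCA5, ABCG2 and ABCC3). None of the 57 members is among the 32 mesenchymal markers, 22 epithelial markers, 30 Talazoparib sensitivity genes, 23 p53 targets or 40 interferon-stimulated genes tested. Members were 57 of the 12471 genes tested, and at that share lists of this size would hold few or none. The absence is therefore not read as a trait of the members. These lists are not the hallmark gene sets behind the EMT signature of the study, and overlap with those sets was not examined.

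The members lay on 21 chromosomes and no 2 of them lay within 500 kb of each other. Chromosome 4 held 9 members (FAT4, SLIT2, CYP2U1, ABCG2, TSPAN5, SLC7A11, SLC25A4, ERVMER34-1 and FGF2), or 15.8%, against 3.58% of the genes tested. Chromosome 3 held 7, or 12.3% against 5.69%. Chromosome 1 held 3, or 5.26% against 10.3%, and chromosome 19 held 1, or 1.75% against 7.26%. These shares are descriptions over genes and were not tested.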

How the data were processed

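Stranded poly(A) libraries of the 3 groups of PSN1 cells, 3 replicates each, had been read as pairs of 150 bases. The values that the authors deposited are CPM on the log2 scale, with a prior count of 1 and with negative values replaced by 0. The unit follows from the values themselves, because undoing the log gives whole multiples of 1 read, within 0.01 of a read, for values below 50 CPM in every library, and the reads on genes above 1 CPM were recovered in this way. The submitters' processing notes name build hg38. The aligner, the counter and the annotation are not given in the sources used here. Depth limits weak genes, since 1 CPM stood for between 6.97 and 14.5 reads per library.

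The 9 libraries were fitted together in limma 3.58.1 (R 4.3.3) with a mean-variance trend, over 12471 genes above 1 CPM in at least 3 libraries, with Benjamini-Hochberg adjustment. No pseudocount was added to the values. The test was tried on simulated data for TalaR-M against TalaR-DF cells over 12461 genes, and it recovered 200 of 200 genes changed 4-fold with 0 false calls. The simulated libraries shared the same spread, and none deviated as TalaR-M replicate 2 did. The recovery therefore does not show how many changes the fit to the real libraries could miss. Lengths and GC content came from GENCODE 44 on GRCh38, and positions and promoters from RefSeq, matched by symbol, with 5 members under a newer name.

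The members and all gene lists were chosen with earlier results of these data known, and the roles and motifs were assigned after the members were known. Genes that entered a list only through the first letters of a symbol, such as TNRC6A among the tenascins, were taken out after the first results. Named genes were the 12 members with the largest smaller difference, those called between TalaR-M and TalaR-DF cells, members of the stemness list or of a list with at least 2 members, and the 3 genes on each side of 1.5. Others are named to account for every member, except that 1 member and a few other genes are not reported by name here. Alternatives were other thresholds, filters, scalings, pseudocounts and fits, and leaving out each library. The other samples of the study were not used here.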

Additional observations from a re-analysis of the deposited data

How the results depend on the processing

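The number of members depends on the thresholds. It was 126 with a minimum difference of 1, 34 with 2, 88 with a minimum level of 2, and 53 to 58 when a library of the rule was left out, against 57. The 8 members called higher in TalaR-M than in TalaR-DF cells were 14 without TalaR-M replicate 2, and 7 to 14 over all libraries left out in turn, and 6 with a pseudocount of 8 CPM. The count of members called lower stayed at 0 in all 17 alternatives. Few genes were called lower at all, 1.64% of the genes tested with all 9 libraries, so that 0 of 57 is near that share. The median difference was -0.052 to 0.50 when a library was left out, against 0.13, and median-ratio scaling gave 0.28. This scaling subtracted a shift of -0.33 on the log2 scale from TalaR-M replicate 2 and so raised its values. Members above all parental libraries in replicate 2 numbered 55 to 56 when a parental library was left out.

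Among 25 named members and 16 alternatives each, 376 of 400 differences between TalaR-M and TalaR-DF cells kept their sign and side of the threshold. Many of these signs were fixed in advance. Other filters, a fit without the trend, the replicate block and the fit of the resistant groups leave the difference unchanged. So does leaving out a parental library. These alternatives could alter only the call. Of the 400 differences 4 were no longer called (FAM65C and CCDC80 with the pseudocount, CCDC80 without TalaR-M replicate 1, and DKK1 in the fit of the resistant groups). A further 3 became called (SEMA3E, ADAMTS12 and THBS1 without TalaR-M replicate 2) and 17 changed sign. When a library was left out, the sign changed within -0.64 to 0.082 for UST, -1.30 to 0.50 for FAT4, -0.48 to 0.12 for GLUL, -0.82 to 0.44 for SSTR1, -1.08 to 0.14 for DSG2, -0.57 to 0.26 for SLC7A11 and -0.90 to 0.10 for SLIT2, each time without TalaR-M replicate 2. It changed without another library within -0.025 to 0.27 for COCH, -0.20 to 0.49 for ARHGEF26, -0.15 to 0.20 for ALCAM and -0.18 to 0.057 for TMEM44, which median-ratio scaling moved to 0.10. None of these 11 genes was called. The cause was not tested.

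The correlations of deviations between samples of the same replicate number were -0.31 to 0.16. Samples of different number were not compared, so that these values cannot decide whether replicate numbers pair the samples. With the replicate block 8 members were called higher and 0 lower. A depth of 8387755 reads in TalaR-M replicate 2 and 3 libraries per group limit what can be called among weak genes.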

Other observations

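A further 47 genes met both differences of 1.5 but stayed under 3 log2 CPM in at least 1 resistant population, and 21 of them were listed at 0 in all parental libraries. In TalaR-M replicate 2, which did not choose them, 45 of the 47 were above all parental libraries, against 37.9% of the genes tested. The parental libraries did enter their choice, and for the genes listed at 0 in parental cells any value above 0 meets this. Between TalaR-M and TalaR-DF cells limma called 13 higher and 1 lower with all 9 libraries (5.29% and 1.64% over the genes tested), and 18 higher and 2 lower without TalaR-M replicate 2 (6.96% and 1.4%). The genes below were named after their values were seen.

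DIO2, which activates thyroid hormone, was at 6.44, 5.61 and 6.35 log2 CPM in TalaR-M and at 2.31, 2.22 and 2.42 in TalaR-DF libraries, a difference of 3.82 (limma, adjusted p = 3.8e-05) and of 4.08 without replicate 2. ANXA3 differed by 2.94 (limma, adjusted p = 0.00011) and by 3.17 without replicate 2, and CDKN2C, a cyclin-dependent kinase inhibitor, by 2.35 (adjusted p = 0.00016) and 2.36. AMOT, which binds YAP, differed by 2.37 (limma, adjusted p = 0.0013) and by 2.73 without replicate 2.

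NUP210L, a testis nucleoporin, was lower by 1.14 in TalaR-M cells without replicate 2 (limma, adjusted p = 0.00011) and by 0.43 with it (adjusted p = 0.56).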
